A study of Mus musculus with 16 samples.

Results

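The AP-1 Fos and Jun family was described in mouse DN3 thymocytes through 9 genes, Fos, Fosb, Fosl1, Fosl2, Jun, Junb, Jund, Atf3 and Batf. They were taken by gene symbol from each of 2 gene-level count tables, and each symbol named 1 of the 22114 rows in each table. All 9 genes were counted in 15 RNA-seq libraries made from poly-A RNA of sorted DN3 cells, the CD4-CD8- stage at which T-cell precursors rearrange Tcrb. The study asked what distinguishes slowly dividing DN3 cells of Lmo2-transgenic mice and what the loss of p21 does to them.

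In the first experiment, all mice were C57BL/6 per the labels (C57BL/6J per the methods) and carried the CD2-Lmo2 transgene (Lmo2Tg), in which a CD2 promoter drives Lmo2, together with a TetOP-H2B-GFP knock-in allele. Doxycycline was given for 6 weeks and withdrawn for 2 weeks, so that a cell lost GFP each time it divided, and DN3 cells were sorted as GFPhi (3 libraries) or GFPlo (3 libraries). In the second experiment, total DN3 cells came from mice of the same strain and 4 genotypes. These were wild type (WT, 3 libraries), p21-/- (2 libraries), Lmo2Tg (2 libraries) and Lmo2Tg;p21-/- (2 libraries), where p21-/- is the loss of Cdkn1a, which encodes the cyclin-dependent kinase inhibitor p21. Each library was a pool of several mice, 6 weeks old per the methods, although the study elsewhere gives 2 months for the GFP-sorted mice. Libraries held 26861394 to 31106213 counts in the GFP sort and 13864936 to 16837667 counts in the genotypes. The columns of the 2 Lmo2Tg libraries could be tied to their group but not to a numbered sample, because their short headers are also the descriptions of 2 GFPlo samples, whose mice carried the transgene too. They are called Lmo2Tg libraries 1 and 2 by their order in the table. One p21-/- sample had no column and was not analysed here, and a further column headed as an Lmo2Tg;p21-/- library matched no labelled sample and was not used. The sources used here do not say what that column is.

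AP-1 is a dimer of basic leucine zipper (bZIP) proteins. A Jun protein pairs with itself, with a Fos protein or with a relative of the ATF or BATF type, and the dimer binds a short DNA element in the promoters and enhancers of its targets. Several of the genes are immediate-early genes, which means that growth factor, antigen receptor or stress signals switch them on within minutes, through factors already in the cell and without new protein synthesis. In T cells AP-1 is best known for acting with NFAT downstream of the antigen receptor, and Fos and Jun are also well known to be induced by the handling of tissue.

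Promoters of 3 members are shown because their upstream bases carry the elements through which this family is classically described as induced. Each run is the 120 bases before the RefSeq start on the gene's own strand (RefSeq, GRCm38.p6), with the matched motif in capitals. RefSeq promoters were matched for 8 of the 9 members, all but Fosl1. The Jund window ended at chr8:70697738, upstream of the annotated gene start at 70698949, so it did not adjoin the annotated gene.
Fos (chr12:85473770-85473889, plus strand): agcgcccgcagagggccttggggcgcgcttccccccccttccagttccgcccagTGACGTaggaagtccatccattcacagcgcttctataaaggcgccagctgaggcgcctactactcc
Jun (chr4:95052223-95052342, minus strand): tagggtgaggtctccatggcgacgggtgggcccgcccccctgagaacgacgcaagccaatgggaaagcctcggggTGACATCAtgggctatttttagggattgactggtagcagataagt
Atf3 (chr1:191183334-191183453, minus strand): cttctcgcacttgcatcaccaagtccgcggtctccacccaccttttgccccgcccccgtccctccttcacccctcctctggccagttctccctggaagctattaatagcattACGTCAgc
The capitals mark TGACGT, the core of the cyclic AMP response element (CRE), in Fos, the same core read on the other strand (ACGTCA) in Atf3, and the CRE-like TGACATCA in Jun. Both strands were searched over 250 bases before the start. TGACGT was found in 6.47% and TGACATCA in 2.93% of 32851 promoters, and these letters were chosen after the promoters had been read. Batf also held TGACGT in its window. The full TGACGTCA (1.55% of promoters), the AP-1 element TGANTCA (6.75%) and the CArG box bound by SRF (1.47%) matched none of the 8 members within these 250 bases. Bases further upstream were not searched, so this does not show that a member lacks such an element. TGACGTCA contains TGACGT, so these counts overlap.

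The labels were checked first. Lmo2 was at 41.4 and 100.4 CPM (counts scaled to library size, with TMM factors) in the Lmo2Tg libraries and at 85.4 and 107 CPM in the Lmo2Tg;p21-/- libraries. In the 5 libraries without the transgene it was between 0.0636 and 0.306 CPM. Cdkn1a was at 36.5, 37.5 and 49.0 CPM in WT, 14.3 and 17.7 CPM in p21-/-, 32.8 and 26.3 CPM in Lmo2Tg, and 4.35 and 3.50 CPM in Lmo2Tg;p21-/-. Cdkn1a was therefore lower in every p21-/- library than in every library of this experiment with p21, with reads still counted. All 18 DN3 markers, among them Il2ra, Ptcra, Rag1 and Cd3e, were detected in all 15 libraries.

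Several libraries stood apart from others of their group. WT library 3 had far less Fos, Fosb, Jun and Junb than WT libraries 1 and 2, and p21-/- library 2 had more Fosl2 than p21-/- library 1. GFPhi library 3 had the highest Fos, Jun and Junb of its table. It also had 285 CPM of Lmo2 against 29.5 to 53.8 CPM in the other 5 GFP-sorted libraries, and 6.56 CPM of Cdkn1a against 29.9 and 35.8 CPM in the other GFPhi libraries. With this library included, Cdkn1a was not called between GFPhi and GFPlo (log2 fold change 1.21, SE 0.59, edgeR adjusted p = 0.21).

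**Figure D1:**
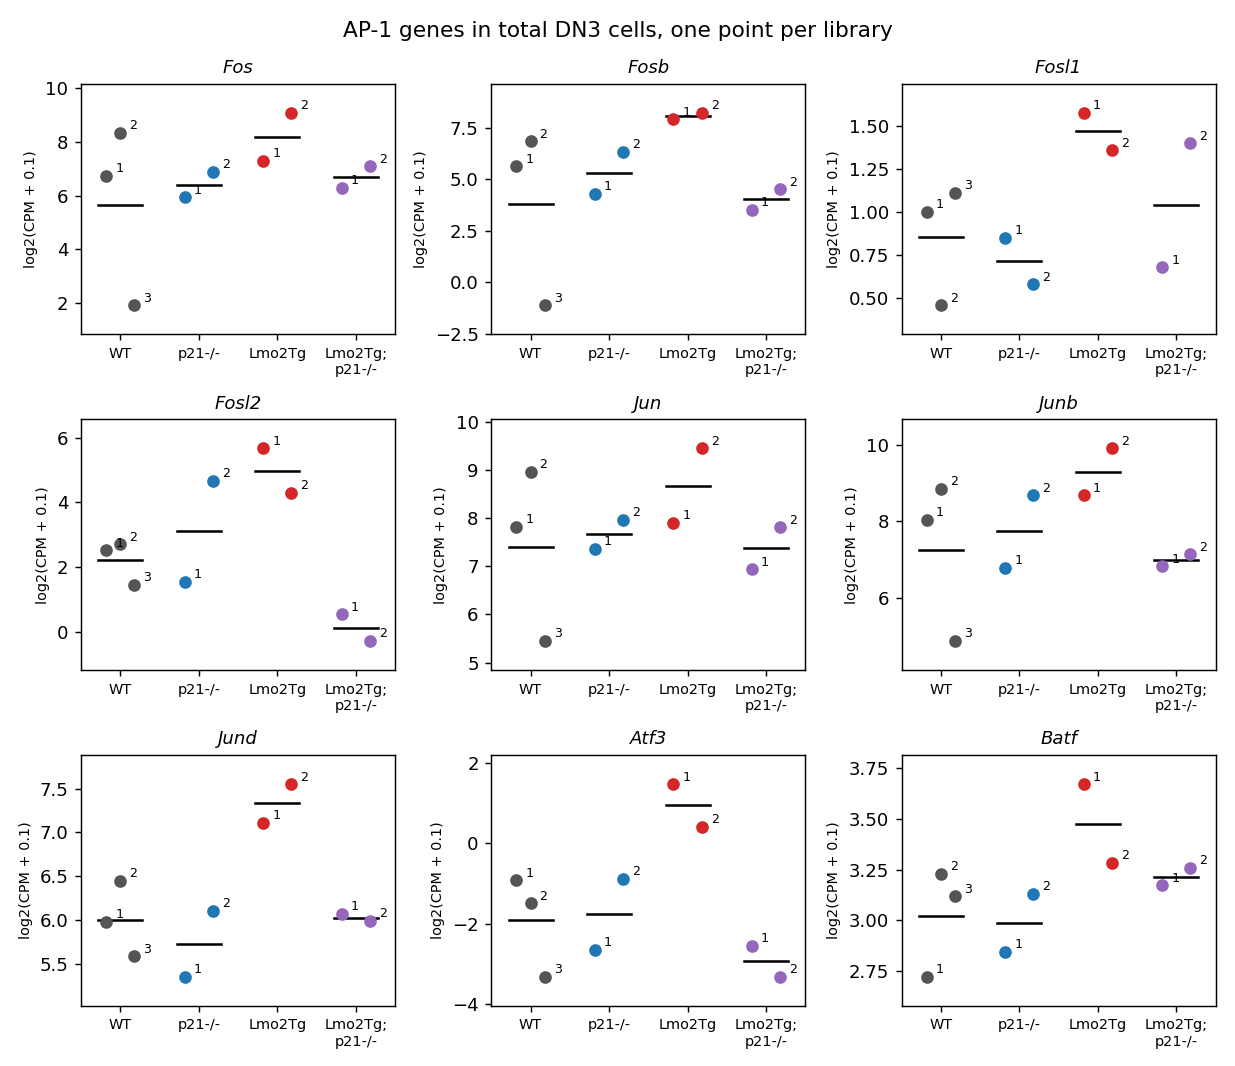
Each panel plots 1 AP-1 gene as log2(CPM + 0.1) on the vertical axis for the 9 genotype libraries, with the library number beside each point and a bar at the mean of the log2 values of each group (WT n = 3, others n = 2). Scales differ between panels; WT library 3 is the lowest point for Fos, Fosb, Jun and Junb, and Fosl2, Jund and Atf3 are higher in both Lmo2Tg libraries than in every WT and Lmo2Tg;p21-/- library.

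Fosl2 and Jund were higher in Lmo2Tg than in WT and lower in Lmo2Tg;p21-/- than in Lmo2Tg. Fos, Fosb, Jun and Junb pointed the same way and were not called. Libraries of one group lay far apart for these 4 and for Fosl2, and less so for Jund. Atf3 was over the count filter only in the Lmo2Tg libraries, so it was kept out of these counts and is described by its reads. Of the other 8 members, 2 were called higher in Lmo2Tg than in WT (Fosl2 and Jund), and the same 2 lower in Lmo2Tg;p21-/- than in Lmo2Tg. A member was called when it differed more than 2-fold at an adjusted p under 0.05 in edgeR's quasi-likelihood F test, adjusted by the Benjamini-Hochberg method over all 11840 genes tested. Of these genes, 7.29% were called higher in Lmo2Tg than in WT, and 1.44% were called lower in Lmo2Tg;p21-/- than in Lmo2Tg. Both comparisons share the 2 Lmo2Tg libraries. The median log2 fold change over the 8 members was 1.30 in the first, against -0.01 over all genes, and -1.57 in the second, against 0.02 over all genes. These medians were 0.71 and -0.81 without Lmo2Tg library 2, and the first was 2.02 without WT library 2 and 0.83 without WT library 3. In bulk samples, fewer cells that express a gene and less RNA per cell cannot be told apart.

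Among the Fos proteins, which pair only with partners such as Jun, Fosl2 (Fra-2; GRCm38 chr5:32135801-32157842) was the only one called. It was at 5.64, 6.42 and 2.66 CPM in WT and at 2.81 and 25.2 CPM in p21-/-. The Lmo2Tg libraries had 50.7 and 19.6 CPM, and the Lmo2Tg;p21-/- libraries 1.36 and 0.725 CPM. Both Lmo2Tg;p21-/- libraries were below all the others, both Lmo2Tg libraries were above every WT library, and p21-/- library 2 was above Lmo2Tg library 2. Fosl2 was 7.15-fold higher in Lmo2Tg than in WT (log2 fold change 2.84, SE 0.68, edgeR adjusted p = 0.0079). It was lower in Lmo2Tg;p21-/- than in Lmo2Tg by a log2 fold change of -5.09 (SE 0.98, edgeR adjusted p = 0.015). DESeq2 called this difference too (DESeq2 adjusted p = 0.00016), and limma-voom did not (-4.95, limma-voom adjusted p = 0.075). Without Lmo2Tg library 1 the difference from WT was 2.00 (edgeR adjusted p = 0.086).

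Fosb (chr7:19302696-19310051), an immediate-early Fos protein, was at 48.8, 115 and 0.363 CPM in WT and at 19.4 and 80.8 CPM in p21-/-. It was at 240 and 299 CPM in Lmo2Tg and at 11.4 and 22.8 CPM in Lmo2Tg;p21-/-. Both Lmo2Tg libraries were above all others, and the Lmo2Tg;p21-/- libraries lay within the WT range. The log2 fold changes were 2.31 (SE 0.97, edgeR adjusted p = 0.084) for Lmo2Tg against WT and -3.97 (SE 1.23, edgeR adjusted p = 0.079) for Lmo2Tg;p21-/- against Lmo2Tg, so neither was called. Without WT library 3 both were called, at 1.72 (edgeR adjusted p = 0.048) and -3.97 (edgeR adjusted p = 0.013). The first was also called without WT library 2 (3.46, edgeR adjusted p = 0.032) and by limma-voom (4.41, limma-voom adjusted p = 0.036).

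Fos itself (chr12:85473890-85477273), whose promoter is printed above, was at 107, 321 and 3.69 CPM in WT and at 60.9 and 118 CPM in p21-/-. It was at 156 and 545 CPM in Lmo2Tg and at 78.5 and 137 CPM in Lmo2Tg;p21-/-. WT library 2 was higher than Lmo2Tg library 1, so those groups overlapped, while both Lmo2Tg;p21-/- libraries were below both Lmo2Tg libraries. The log2 fold change was 1.29 (SE 1.00, edgeR adjusted p = 0.34) for Lmo2Tg against WT. For Lmo2Tg;p21-/- against Lmo2Tg it was -1.70 (SE 1.14, edgeR adjusted p = 0.38), a difference within what the spread between libraries gives. Without Lmo2Tg library 2 these values were 0.12 (edgeR adjusted p = 0.96) and -0.53 (edgeR adjusted p = 0.89).

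Fosl1 (Fra-1; chr19:5447547-5455946) was scarce, at 1.27 to 2.06 CPM in WT, 1.39 and 1.70 CPM in p21-/-, 2.46 and 2.88 CPM in Lmo2Tg, and 1.50 and 2.54 CPM in Lmo2Tg;p21-/-. Both Lmo2Tg libraries were above every WT library, with a log2 fold change of 0.61 (SE 0.31, edgeR adjusted p = 0.15). Its exons share 1163 bases with Ccdc85b on the other strand. Fosl1 had 20 to 42 counts per library here and 0 to 2 in the more deeply counted GFP-sorted libraries, where Ccdc85b had 330 to 584 counts against 155 to 329 here. Reads of Fosl1 and Ccdc85b cannot be told apart without strand, so the Fosl1 values are uncertain.

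Among the Jun proteins, which can pair with each other and with any Fos protein, Jund (chr8:70698949-70700616) varied least within groups and was the only one called. It was at 62.9, 87.1 and 47.9 CPM in WT, 40.7 and 68.7 CPM in p21-/-, 138 and 187 CPM in Lmo2Tg, and 67.0 and 63.3 CPM in Lmo2Tg;p21-/-. Both Lmo2Tg libraries were above the other 7 libraries, which overlapped one another. Jund was 2.47-fold higher in Lmo2Tg than in WT (log2 fold change 1.30, SE 0.24, edgeR adjusted p = 0.0020). It was lower in Lmo2Tg;p21-/- than in Lmo2Tg (log2 fold change -1.32, SE 0.27, edgeR adjusted p = 0.020). Gm11175 lies over 877 bases of the Jund exon on the other strand, so without strand their reads cannot be told apart either. The same holds for 173 exon bases that Junb shares with Prdx2 and 232 that Jun shares with Junos, also on the other strand.

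Junb (chr8:84974484-84978718) was at 261, 458 and 29.0 CPM in WT, 110 and 409 CPM in p21-/-, 407 and 955 CPM in Lmo2Tg, and 113 and 140 CPM in Lmo2Tg;p21-/-. WT library 2 and p21-/- library 2 were above Lmo2Tg library 1, and both Lmo2Tg;p21-/- libraries were below both Lmo2Tg libraries. The log2 fold change was 1.45 (SE 0.80, edgeR adjusted p = 0.18) for Lmo2Tg against WT. For Lmo2Tg;p21-/- against Lmo2Tg it was -2.43 (SE 0.94, edgeR adjusted p = 0.14). The latter was called without WT library 3, at -2.43 (edgeR adjusted p = 0.040). Without Lmo2Tg library 2 the values were 0.70 (edgeR adjusted p = 0.62) and -1.69 (edgeR adjusted p = 0.46).

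Jun (chr4:95049034-95052222), the founding member, was at 225, 499 and 43.5 CPM in WT, 164 and 250 CPM in p21-/-, 239 and 699 CPM in Lmo2Tg, and 122 and 224 CPM in Lmo2Tg;p21-/-. The Lmo2Tg libraries overlapped WT and p21-/-, and were both above Lmo2Tg;p21-/-, library 1 by little. Its log2 fold changes were 0.88 (SE 0.71, edgeR adjusted p = 0.36) for Lmo2Tg against WT and -1.43 (SE 0.81, edgeR adjusted p = 0.29) for Lmo2Tg;p21-/- against Lmo2Tg. Without Lmo2Tg library 2 they were -0.10 (edgeR adjusted p = 0.95) and -0.46 (edgeR adjusted p = 0.86).

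Atf3 (chr1:191170296-191218039), a stress-induced partner of Jun that often represses its targets, was near the limit of detection. It had 7, 4 and 0 counts in WT, 1 and 7 counts in p21-/-, 36 and 18 counts in Lmo2Tg, and 1 and 0 counts in Lmo2Tg;p21-/-. Both Lmo2Tg libraries were above all others. Summed over libraries and scaled to library size, Lmo2Tg had 8.47 times the Atf3 of WT (54 against 11 counts, exact 95% interval 4.38 to 17.97). It had 58.7 times that of Lmo2Tg;p21-/- (54 against 1 count, exact 95% interval 10.1 to 2359). These intervals cover counting error only. No call is counted for Atf3, because only the libraries in which it was high brought it past the filter.

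Batf (chr12:85686669-85709087), which pairs with Jun proteins in lymphocytes, had the smallest log2 fold changes of the 9 in both comparisons. It was at 6.50 to 9.29 CPM in WT, 7.09 and 8.67 CPM in p21-/-, 12.6 and 9.64 CPM in Lmo2Tg, and 8.92 and 9.48 CPM in Lmo2Tg;p21-/-. The log2 fold change was 0.45 (SE 0.19, edgeR adjusted p = 0.082) for Lmo2Tg against WT and -0.27 (SE 0.21, edgeR adjusted p = 0.44) for Lmo2Tg;p21-/- against Lmo2Tg.

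**Figure D2:**
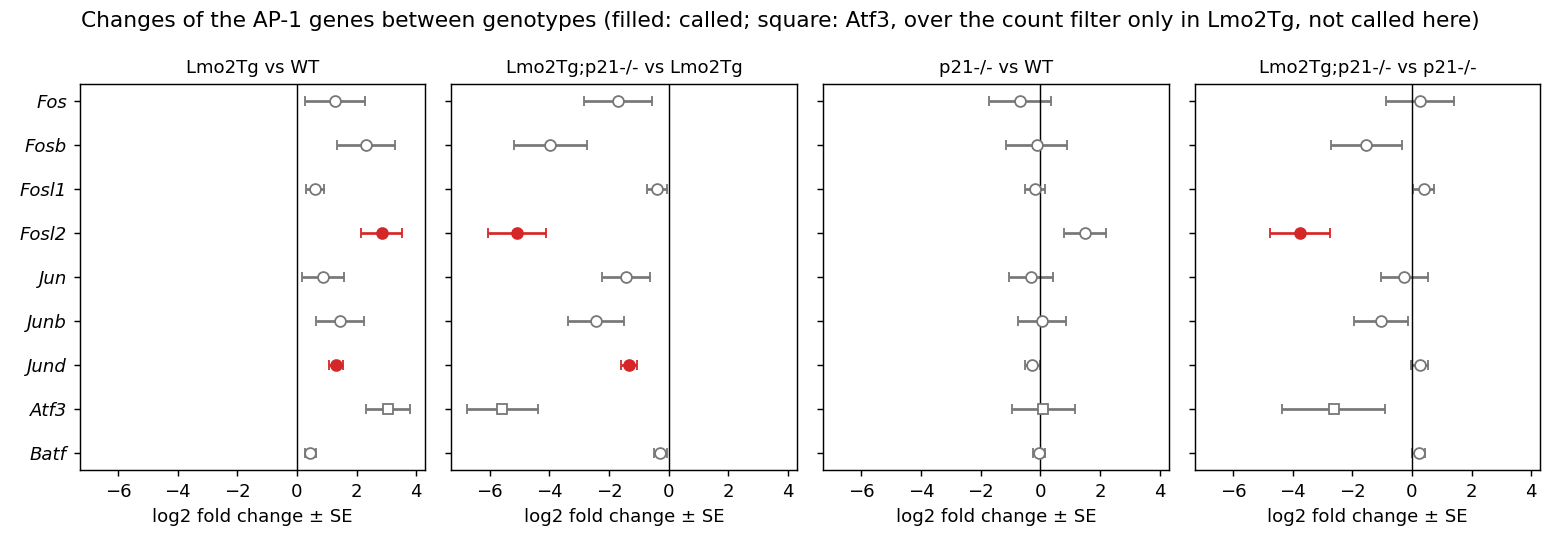
The horizontal axis is the log2 fold change of each AP-1 gene (rows) in 4 genotype comparisons (panels), with bars of 1 SE from edgeR's quasi-likelihood fit over 9 libraries. Filled points passed the call rule and the square is Atf3, which is given no call; Fosl2 and Jund are filled in the first 2 panels, with Fosl2 at 2.84 and -5.09, no point is filled for p21-/- against WT, and Fosl2 alone (-3.76) for Lmo2Tg;p21-/- against p21-/-.

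Counting libraries alone and leaving Atf3 aside, 7 of 8 members, all except Fosl1, had both Lmo2Tg;p21-/- libraries below both Lmo2Tg libraries, as did 25.7% of all genes tested. In 5 of 8 members, namely Fosl2, Fosb, Jund, Batf and Fosl1, both Lmo2Tg libraries were above all 3 WT libraries, as were 29.9% of all genes. The calls of Fosl2 and Jund in Lmo2Tg;p21-/- against Lmo2Tg were lost without either Lmo2Tg;p21-/- library, while their log2 fold changes stayed about as large (-5.59 and -4.69 for Fosl2, -1.38 and -1.29 for Jund). Jund was also not called without Lmo2Tg library 2 (-1.09, edgeR adjusted p = 0.11). Without WT library 3, 4 members were called, with Fosb and Junb added.

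Without the transgene, the loss of p21 gave no call among the members in fits without a replicate block. In p21-/- against WT, 0 of 8 members passed edgeR's quasi-likelihood test, against 0.101% of all genes (12 genes), and no member had an unadjusted p under 0.05, against 391 genes. The libraries of p21-/- and WT overlapped for all 9 members, Atf3 included, whereas 9.91% of all genes had both p21-/- libraries above and 9.62% below every WT library. DESeq2 and limma-voom called no member either. With the replicate number as a block, Fos was called (log2 fold change -1.16, edgeR adjusted p = 0.040). That fit left out both Lmo2Tg libraries, and WT library 3 was alone in its block, so WT library 3 added nothing to the difference. Fos was at -1.26 in the fit without a block and without WT library 3. In the fit of all libraries, Fosl2 had the largest difference among the members, a log2 fold change of 1.50 (SE 0.70, edgeR adjusted p = 0.98). It was -0.80 without p21-/- library 2. The values of the other 7 members lay between -0.68 for Fos and 0.056 for Junb, with SEs up to 1.05. With 3 and 2 libraries and SEs of this size, these values do not show that the members were alike in both genotypes.

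Whether the change with p21 loss differed between mice with and without the transgene was tested as an interaction. Fosl2 alone of the 8 members was called, against 0.726% of all genes called in the same direction, with a log2 difference of -6.60 (SE 1.21, edgeR adjusted p = 0.033). Fosb had -3.84 (SE 1.54, edgeR adjusted p = 0.22) and Jund -1.05 (SE 0.37, edgeR adjusted p = 0.18). The Fosl2 interaction ranged from -7.45 to -4.29 when single libraries were left out, and it was then not called in 7 of 9 cases. With all libraries, DESeq2 called it (DESeq2 adjusted p = 0.00064) and limma-voom did not (limma-voom adjusted p = 0.13). It was -4.29 (edgeR adjusted p = 0.14) without p21-/- library 2.

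In p21-deficient cells, Fosl2 was also the only member called with against without the transgene in edgeR's fit without a replicate block. It was lower in Lmo2Tg;p21-/- than in p21-/- (log2 fold change -3.76, SE 1.01, edgeR adjusted p = 0.017), where 4.24% of all genes were called lower. Both Lmo2Tg;p21-/- libraries were below both p21-/- libraries for Fosl2, as for 35.4% of all genes, and above them for Batf, as for 35.5%. Without p21-/- library 2, which had 25.2 CPM, the value was -1.46 (edgeR adjusted p = 0.26). With all libraries, DESeq2 called it (-3.76, DESeq2 adjusted p = 0.0032) and limma-voom did not (-3.02, limma-voom adjusted p = 0.16). The other 7 members lay between -1.53 for Fosb and 0.39 for Fosl1 (SE 0.35), and Fosb was at -0.17 without p21-/- library 2. With the replicate number as a block, Fosb was called too (-1.39, edgeR adjusted p = 0.0012). That fit left out both Lmo2Tg libraries, and WT library 3, alone in its block, added nothing to the estimate of the spread.

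Levels of different members were compared per kilobase of exon. In Lmo2Tg, Junb had the highest level, 296 ± 168 CPM per kb (SD, n = 2), followed by Fos at 149 ± 117, Jun at 147 ± 102 and Jund at 97.7 ± 20.8 CPM per kb. Fosb was at 43.2 ± 6.78, Batf at 7.93 ± 1.51, Fosl2 at 3.63 ± 2.27, Fosl1 at 1.31 ± 0.147 and Atf3 at 0.904 ± 0.470 CPM per kb. In this order, neighbours among the first 4 differed by less than the sum of their SDs, as did Fosl2, Fosl1 and Atf3, whereas Jund and Fosb, Fosb and Batf, and Batf and Fosl2 differed by more. In Lmo2Tg;p21-/- the upper 4 were closer, with Junb at 54.9 ± 8.32, Jun at 54.4 ± 22.6, Fos at 45.7 ± 17.5 and Jund at 39.1 ± 1.56 CPM per kb (SD, n = 2). Fosb was at 2.74 ± 1.28 CPM per kb there, below Batf at 6.54 ± 0.281. In WT, Junb (108 ± 93.4), Jun (80.2 ± 71.9), Fos (61.1 ± 68.8) and Jund (39.6 ± 11.9 CPM per kb, SD, n = 3) overlapped. Batf was at 5.78 ± 1.03 CPM per kb there, against 0.507 ± 0.205 for Fosl2.

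Libraries of one group lay far apart for several members. Over the 9 genotype libraries, the within-group SD of log2 CPM was 2.77 for Fosb, the 5th highest of 11035 genes with at least 1 CPM on average. It was 2.22 for Fos (8th), 1.51 for Junb (12th), 1.28 for Jun (18th) and 1.18 for Fosl2 (21st), against a median of 0.126 over all genes. Jund (0.389, 628th), Fosl1 (0.331, 922nd) and Batf (0.229, 2019th) varied less. In WT the 3 libraries ran from 0.363 to 115 CPM of Fosb and from 3.69 to 321 CPM of Fos. In the GFP sort the same SDs were 0.899 for Junb, 0.828 for Fosb, 0.824 for Jun and 0.728 for Fos, ranks 426 to 693 of 10804 genes, with a median of 0.140.

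**Figure D3:**
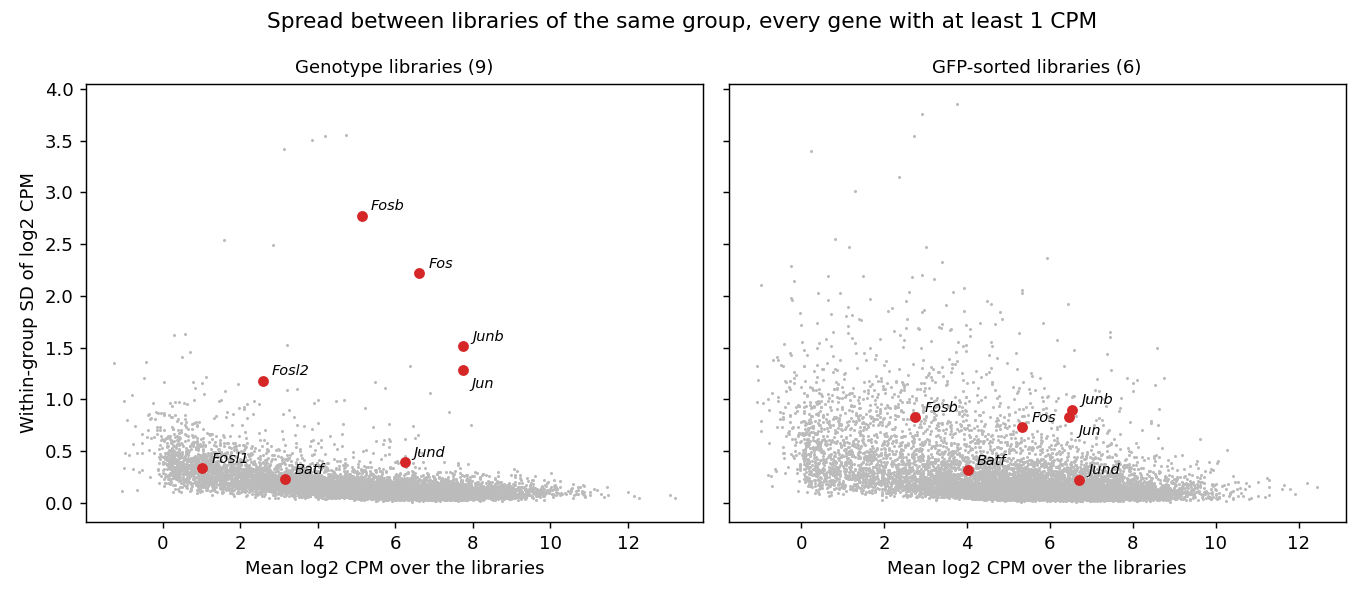
Each grey point is a gene with at least 1 CPM on average, with its mean log2 CPM on the horizontal axis and its SD of log2 CPM within groups on the vertical axis, for the 9 genotype libraries (left) and the 6 GFP-sorted libraries (right); red points are AP-1 genes. Fosb (2.77), Fos (2.22), Junb (1.51) and Jun (1.28) lie far above the bulk of genes on the left, and Jund (0.389) and Batf (0.229) lie lower.

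The mean of the 8 members other than Atf3, each centred on its own mean log2 CPM, was 1.19 and 1.62 in the Lmo2Tg libraries and -0.77 and -0.41 in Lmo2Tg;p21-/-. It was 0.025, 0.70 and -2.21 in WT and -0.66 and 0.52 in p21-/-. Over these 9 libraries the genes outside the family most like this mean, by Pearson r among 11027 genes, were Plk2 (r = 0.974), Pds5a (0.970), Dusp1 (0.960), Atxn2l (0.960) and Chuk (0.956), with Klf4 (0.955) next. With Atf3 in the mean, Klf4 (0.961) took the place of Chuk among the first 5. Klf4 and Dusp1 are themselves immediate-early genes. Dusp1, a phosphatase that switches off MAP kinases, was at 36.4, 78.1 and 9.38 CPM in WT, 18.3 and 50.4 CPM in p21-/-, 114 and 297 CPM in Lmo2Tg, and 24.98 and 33.8 CPM in Lmo2Tg;p21-/-. It shared with Fos the low WT library 3. The r values describe these 9 libraries, which share library preparation and depth.

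Lists of genes related to AP-1 were read beside the members, and were chosen with earlier results of these data known. Of all genes, 7.29% were called higher in Lmo2Tg than in WT and 1.44% lower in Lmo2Tg;p21-/- than in Lmo2Tg. Of 25 other immediate-early genes tested, 18 were called higher in Lmo2Tg than in WT and none lower, and 16 were called lower in Lmo2Tg;p21-/- than in Lmo2Tg and none higher. The largest changes in the latter were of the orphan nuclear receptors Nr4a3 (log2 fold change -5.50, SE 1.16, edgeR adjusted p = 0.022), Nr4a1 (-3.62, SE 0.43, edgeR adjusted p = 0.0022) and Nr4a2 (-3.38, SE 0.55, edgeR adjusted p = 0.0084). Nr4a1 was at 27.0, 34.5 and 21.05 CPM in WT, 19.3 and 64.8 CPM in p21-/-, 392 and 339 CPM in Lmo2Tg, and 27.1 and 32.1 CPM in Lmo2Tg;p21-/-. Unlike Fos, it was not far lower in WT library 3 than in the other WT libraries. The median log2 fold change over the list was 2.25 in Lmo2Tg against WT and -2.16 in Lmo2Tg;p21-/- against Lmo2Tg.

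Of 23 other bZIP factors tested, which can pair or compete with AP-1 proteins, 7 were called higher and 1 (Maf) lower in Lmo2Tg than in WT. In Lmo2Tg;p21-/- against Lmo2Tg, 6 were called lower and none higher. Maff, a small Maf protein, was at 64.3 and 57.0 CPM in Lmo2Tg and 4.43 and 3.62 CPM in Lmo2Tg;p21-/-, with no overlap (log2 fold change -3.92, SE 0.60, edgeR adjusted p = 0.0059). Nfil3 (-1.27, edgeR adjusted p = 0.016) and Jdp2, a Jun dimerization protein (-1.09, edgeR adjusted p = 0.026), followed. None of the 28 tested MAP kinase and SRF genes, which carry signals to Fos and Jun, was called in any of the 6 comparisons by edgeR, DESeq2 or limma-voom. By edgeR, 6 of them had an unadjusted p under 0.05 in Lmo2Tg;p21-/- against Lmo2Tg (3023 of all 11840 genes), 11 in Lmo2Tg against WT (5532 genes) and 11 in Lmo2Tg;p21-/- against p21-/- (5036 genes). There were 2 in p21-/- against WT (391 genes), 3 in the interaction (2148 genes) and 10 in the GFP sort (3871 of 11581 genes).

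Of 12 tested genes widely described as AP-1 targets, 7 were called higher and none lower in Lmo2Tg than in WT, led by Gzmb (log2 fold change 6.66, SE 0.45, edgeR adjusted p = 2.2e-06), the killer cell protease, Plaur and Fasl. In Lmo2Tg;p21-/- against Lmo2Tg, 3 were called lower, Plaur, Cd69 and Ctla4, and none higher. Plaur, the urokinase receptor, was at 14.9 and 8.55 CPM in Lmo2Tg and 0.785 and 0.543 CPM in Lmo2Tg;p21-/- (log2 fold change -4.14, SE 0.60, edgeR adjusted p = 0.0047). Cd69, an early activation antigen that is also on the immediate-early list, was at 105 and 153 CPM against 19.2 and 17.2 CPM (log2 fold change -2.83, SE 0.62, edgeR adjusted p = 0.025). Gzmb, by contrast, was called higher in Lmo2Tg;p21-/- than in p21-/- as well, by a log2 fold change of 4.63 (SE 0.44, edgeR adjusted p = 2.4e-05). In that comparison 4 of the 12 were called higher, Vim (2.05) and Fasl (2.02) among them, and 1 lower. Of all genes, 6.15% were called higher and 4.24% lower there. The symbols Ctla4 and Icos, both on this list, each have 2 rows in the table. The counts of this list are therefore counts of rows, and the value of Ctla4 is uncertain.

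Markers of stress and of other cells were read beside these results, and their part in them was not tested. The 13 stress and heat-shock genes summed to 9918 and 10856 CPM in Lmo2Tg, 6322 and 7288 CPM in Lmo2Tg;p21-/-, 8625 to 9445 CPM in WT and 9206 and 10370 CPM in p21-/-, with Hsp90ab1 the most abundant. Of 12 tested, Dnajb4 (2.29), Dnajb1 (1.28) and Hspa5 (1.04) were called higher in Lmo2Tg than in WT, Dnajb4 (-1.55) and Hspa5 (-1.43) lower in Lmo2Tg;p21-/- than in Lmo2Tg, and Dnajb4 (-1.67), Hspa5 (-1.60) and Hsph1 (-1.08) lower in the interaction. Between Lmo2Tg;p21-/- and Lmo2Tg, 2 of 18 DN3 markers were called, Rag2 higher (1.11) and Hes1, a Notch target, lower (-1.55). In Lmo2Tg against WT, 2 DN3 markers were called higher and 5 lower (4.70% of all genes were called lower), among them Cd7 (3.17), Rag2 (-2.33) and Ptcra (-1.90). The 17 myeloid and dendritic markers summed to 26.6, 28.5 and 18.7 CPM in WT, 30.4 and 34.9 CPM in p21-/-, 28.8 and 32.1 CPM in Lmo2Tg and 32.0 and 44.7 CPM in Lmo2Tg;p21-/-. Lyz2, the most abundant, was at 16.1, 16.6 and 14.6 CPM in WT and 18.8 and 17.8 CPM in p21-/-. It was at 5.77 and 6.15 CPM in Lmo2Tg and 13.0 and 17.9 CPM in Lmo2Tg;p21-/-. Lyz2 was the 1 of 9 tested that was called higher in Lmo2Tg;p21-/- than in Lmo2Tg (log2 fold change 1.38), as were 0.431% of all genes. In Lmo2Tg against WT, Mpo (5.19), Itgax (1.78) and Itgam (1.69) of this list were called higher and 1 gene was called lower. In WT library 3, the library low in Fos, 10 of the 17 were at 0, Csf1r, Cd14 and S100a9 among them, against 4 and 3 in WT libraries 1 and 2. The 13 B-lineage markers summed to 37.2 to 44.8 CPM in all 4 libraries with the transgene and to 69.6 to 81.2 CPM in the other 5, with Cd79b the most abundant. None of 9 tested was called between Lmo2Tg;p21-/- and Lmo2Tg by edgeR, DESeq2 or limma-voom, and 0 had an unadjusted p under 0.05. Of 7 NK and mature T markers tested, S1pr1 (4.95) and Cd8a (1.96) were called higher and Ccr7 (-1.02) lower in Lmo2Tg than in WT, and S1pr1 was lower (-2.30) and Ccr7 higher (1.24) in Lmo2Tg;p21-/- than in Lmo2Tg. In the interaction, edgeR called Ccr7 (2.14) and the myeloid marker Lyz2 (1.16) higher. Of 5 stromal and epithelial markers tested, 3 were called lower in Lmo2Tg than in WT, among them Epcam (-1.46), and none was called between Lmo2Tg;p21-/- and Lmo2Tg by edgeR, DESeq2 or limma-voom (2 at an unadjusted p under 0.05 by edgeR). The list summed to 201 to 204 CPM in WT and 217 and 236 CPM in Lmo2Tg, most of it Pecam1. Of 7 erythroid markers, Hbb-bt (2.72) was called higher in Lmo2Tg than in WT, and the list summed to 38.3 CPM in p21-/- library 2, the one high in Fosl2, against 10.2 CPM in p21-/- library 1. Fosl2 was also lower in Lmo2Tg;p21-/- than in p21-/-, a comparison in which 6.15% of all genes were called higher. There 2 DN3 markers were called higher and 5 lower, 3 myeloid markers higher, among them Mpo (2.06) and Itgam (1.43), and 2 mature T markers higher, Cd8a (1.43) and Ccr7 (1.12). B-lineage markers had 2 genes called lower, H2-Ab1 (-1.48) and Blk (-1.38), and stromal and epithelial markers 3.

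In the GFP sort, no member was called between the slowly dividing GFPhi cells and GFPlo cells. Of 7 members tested, 0 passed a fold change over 2 at an adjusted p under 0.01 by edgeR's quasi-likelihood test, against 2.25% of 11581 genes. Fosb, Fosl2 and Batf had an unadjusted p under 0.05, as did 3871 genes. DESeq2 and limma-voom called no member. The median log2 fold change was 0.85 over the 7 members and 0.02 over all genes, and that of the members was 0.33 without GFPhi library 3. With the replicate number as a block, 0 members and 0 of all genes were called. In 3 of 7 members, Fosl2, Fosb and Batf, all GFPhi libraries were above all GFPlo libraries, as were 19.6% of all genes. This table was normalized apart from that of the genotypes, so no CPM level of a member is compared between them. Raw counts of Fosl1 and Ccdc85b were set side by side above.

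**Figure D4:**
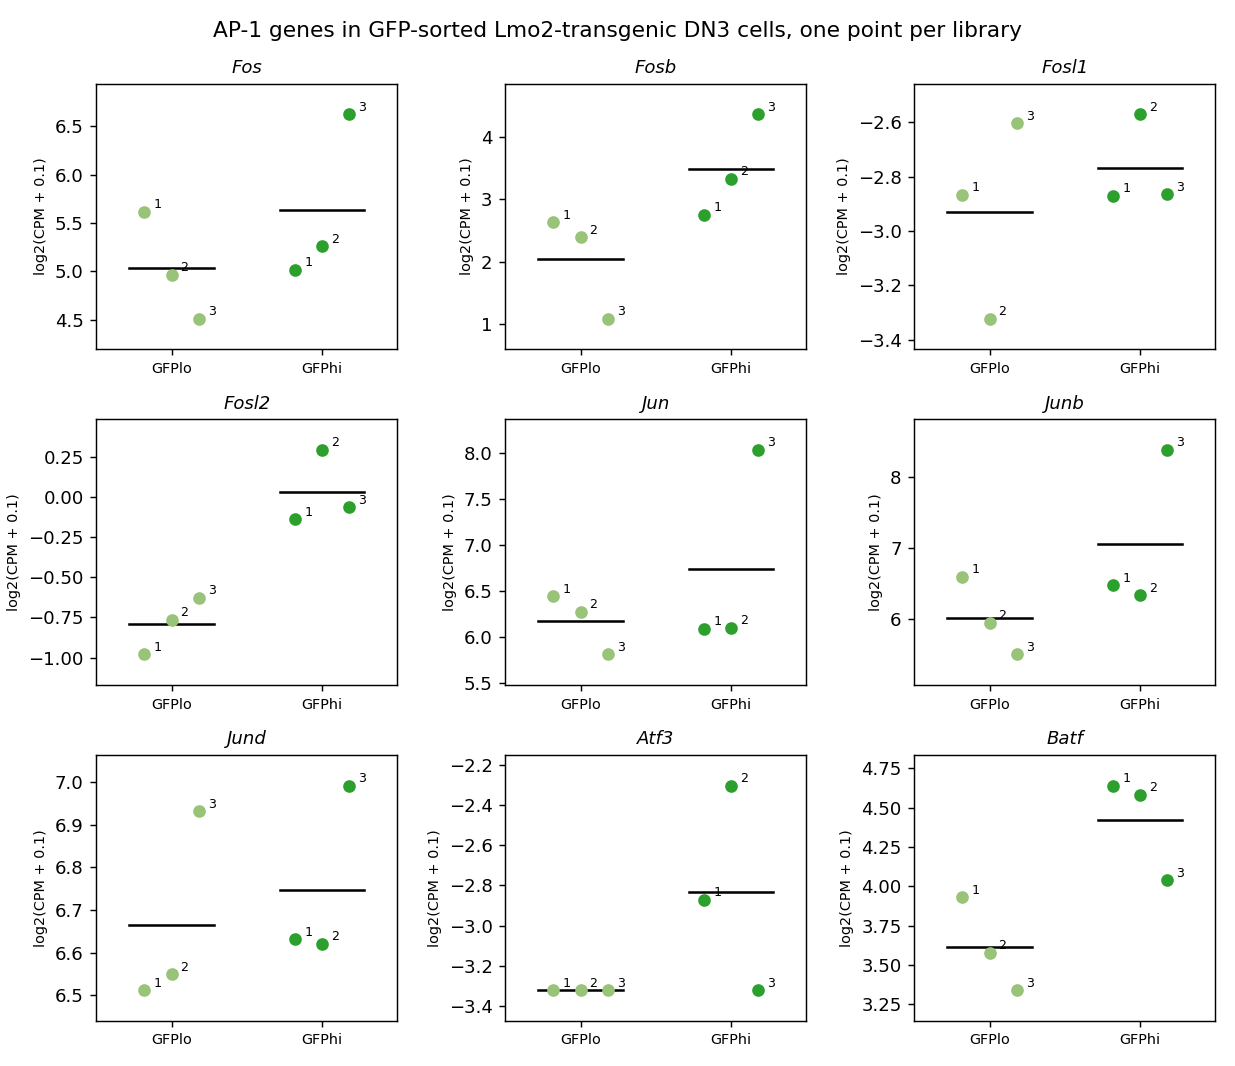
Each panel plots 1 AP-1 gene as log2(CPM + 0.1) on the vertical axis for 3 GFPlo and 3 GFPhi libraries, with the library number beside each point and a bar at the mean of the log2 values. GFPhi library 3 is the highest point for Fos, Fosb, Jun, Junb and Jund; Fosl2, Fosb and Batf have all GFPhi points above all GFPlo points.

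Batf was at 24.8, 23.9 and 16.3 CPM in GFPhi and 15.1, 11.8 and 10.02 CPM in GFPlo, with no overlap but a close gap at GFPhi library 3 (log2 fold change 0.81, SE 0.22, edgeR adjusted p = 0.061). Fosl2 was at 0.808, 1.13 and 0.857 CPM in GFPhi and 0.407, 0.489 and 0.547 CPM in GFPlo, also with no overlap (log2 fold change 0.94, SE 0.28, edgeR adjusted p = 0.074). Fosb was at 6.61, 9.93 and 20.4 CPM in GFPhi and 6.10, 5.13 and 2.03 CPM in GFPlo, with GFPhi library 1 just above the highest GFPlo library (log2 fold change 1.48, SE 0.56, edgeR adjusted p = 0.12).

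Jun, Junb and Fos turned on GFPhi library 3. Jun was at 68.1, 68.6 and 262 CPM in GFPhi and 87.1, 77.6 and 56.2 CPM in GFPlo, so that GFPhi libraries 1 and 2 lay within the GFPlo range. Its log2 fold change of 0.85 (SE 0.57, edgeR adjusted p = 0.34) became -0.10 (edgeR adjusted p = 0.66) without GFPhi library 3. Junb was at 88.9, 80.5 and 334 CPM in GFPhi and 96.8, 61.4 and 45.1 CPM in GFPlo, and its log2 fold change of 1.31 (SE 0.62, edgeR adjusted p = 0.20) became 0.33 (edgeR adjusted p = 0.38). Fos was at 32.3, 38.2 and 98.5 CPM against 49.0, 31.2 and 22.7 CPM, and its log2 fold change of 0.72 (SE 0.50, edgeR adjusted p = 0.36) became 0.05 (edgeR adjusted p = 0.91). Fosb was at 0.92 (edgeR adjusted p = 0.12) without that library. Batf was then at 0.99 (edgeR adjusted p = 0.0039) and Fosl2 at 1.01 (edgeR adjusted p = 0.045), of which Batf stayed under 2-fold and Fosl2 above the adjusted p of 0.01.

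Jund did not differ detectably between the sorted cells, at 99.0, 98.3 and 127 CPM in GFPhi and 91.2, 93.6 and 122 CPM in GFPlo (log2 fold change 0.08, SE 0.15, edgeR adjusted p = 0.75). Atf3 and Fosl1 were under the count filter. Atf3 had 1, 3 and 0 counts in GFPhi and 0 in each GFPlo library, and Fosl1 0 to 2 counts, which is at or under the 3 counts that a count of 0 allows, so no fold was computed. Beside these values, Egr1, another immediate-early factor, was at 82.4, 72.2 and 37.7 CPM in GFPhi and 21.6, 15.2 and 14.8 CPM in GFPlo, with GFPhi library 3 the lowest of its group, the reverse of its place for Jun. Of 23 other immediate-early genes tested in the sort, 0 were called by edgeR (10 at an unadjusted p under 0.05), 0 by limma-voom and 3 by DESeq2. The 13 B-lineage markers summed to 75.7, 192 and 94.9 CPM in GFPhi and 48.8, 54.2 and 52.9 CPM in GFPlo, and Cd74 and H2-Eb1 were called higher in GFPhi by edgeR. Over all 11 tested, Ms4a1 included, edgeR called 3 higher, DESeq2 7 and limma-voom 0. Cd79b was the most abundant. Ms4a1 had 0 or 1 count in each GFPlo library and 51, 222 and 60 counts in GFPhi. Only the GFPhi libraries brought Ms4a1 past the filter, so its call carries no weight. GFPhi library 2, the highest in these markers, was also the highest in Fosl2, while GFPhi library 3 was the highest in Fos, Fosb, Jun, Junb and Jund and GFPhi library 1 in Batf. Their part in the differences of the AP-1 genes was not tested.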

How the data were processed

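Poly-A RNA of sorted DN3 thymocytes had been sequenced by the authors. Per the labels, the submitters' processing notes name STAR 2.4.2a, featureCounts, limma and build mm10. The deposited values are raw counts per protein-coding gene in 2 tables, whose names carry different strand settings (reverse for the GFP sort, none for the genotypes). One column of per-sample values, headed as an Lmo2Tg;p21-/- library but matching no labelled sample, was not used. Library depth ranged from 13864936 to 31106213 counts. Genes were filtered (filterByExpr, minimum count 10, minimum total 15), scaled by TMM and tested in edgeR 4.0.16 (R 4.3.3) by quasi-likelihood F tests with Benjamini-Hochberg adjustment over all genes tested. The 9 genotype libraries shared 1 fit, and the GFP sort had its own. Calls needed a fold change over 2 and an adjusted p under 0.01 (GFP sort) or 0.05 (genotypes). SEs are the log2 fold change over the root of F. Log2 CPM used a prior count of 2. On simulated counts for Lmo2Tg;p21-/- against Lmo2Tg, 187 of 198 genes changed by 2 on the log2 scale were recovered among 11681 genes, with 5 others called. In the GFP sort 165 of 198 were recovered with 0 others called, and in the interaction 172 of 196 with 11 others called. The changed genes were drawn at random, so these shares need not hold for members with a wide spread between libraries, such as Fosb and Fos. Alternatives were RLE scaling, DESeq2 1.42.0, limma-voom (limma 3.58.1), no filter, other thresholds, a replicate block, fits of 2 groups, raw CPM and each library left out. Exon lengths and positions came from GENCODE M21 (GRCm38, the build called mm10), which matched 21721 of 22114 identifiers (98.2%). In each other list, named genes were the 3 called genes with the largest change and at least 1 CPM, and the 5 most alike by r (a mean without Atf3 was printed, added after values were seen). Dusp1, Nr4a1 and Egr1 values, and the promoters, were chosen after values were seen. The members and lists were chosen with earlier results of these data known. The sources do not say that the genotype libraries came from separate cohorts, so p-values measure the spread between these libraries, which may be technical. Replicates differed by more than counting noise, with a chi-square per gene from 2.63 to 134.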

Additional observations from a re-analysis of the deposited data

Results flagged for a closer look

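The change of Fosl2 with p21 loss differed between cells with and without the Lmo2 transgene in edgeR's fit, a call that depended on single libraries. The interaction was -6.60 on the log2 scale (SE 1.21, edgeR's quasi-likelihood F test, adjusted p = 0.033), past the threshold for a difference between those effects. DESeq2 called it too (DESeq2 adjusted p = 0.00064). It was not called by limma-voom (limma-voom adjusted p = 0.13) or in 7 of 9 fits with a library left out, and it was -4.29 (edgeR adjusted p = 0.14) without p21-/- library 2. Both Lmo2Tg;p21-/- libraries (1.36 and 0.725 CPM) were below both Lmo2Tg libraries (50.7 and 19.6 CPM), whereas 1 of the 2 p21-/- libraries (25.2 CPM) was above and the other (2.81 CPM) within the WT range of 2.66 to 6.42 CPM.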

How the results depend on the processing

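Under RLE scaling every count of members and of genes called stayed within 1.5 times its value, and the levels on raw CPM moved by less than 1 SD for all 54 levels of members in groups. Of 645 comparisons of a log2 fold change of a member other than Atf3 with an alternative, 585 kept direction and side of the threshold, 19 lost and 14 gained a call, and 27 changed sign. Where an alternative did not itself leave out libraries or genes or set another threshold, the cause of a change was not tested. The centred mean without Atf3, an alternative chosen after seeing the data, moved by less than 1 SD of its group in all 9 libraries.

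No call of Atf3 is counted. The members called in Lmo2Tg;p21-/- against Lmo2Tg (2) became 4 with no low-count filter and 4 in a fit of only the 2 groups (Fosb and Junb added), and 0 at an adjusted p under 0.01. They became 1 with limma-voom, where Fosl2 lost its call. In Lmo2Tg;p21-/- against p21-/- (1) they became 0 with limma-voom and 0 at an adjusted p under 0.01. In the interaction (1) they became 0 with limma-voom, 3 with no filter (Fosb and Jund added) and 0 at an adjusted p under 0.01. With single libraries left out the members called ranged from 0 to 4, from 1 to 3 for Lmo2Tg against WT, from 0 to 1 for Lmo2Tg;p21-/- against p21-/- and from 0 to 1 for the interaction. Lmo2Tg against WT fell to 1 without Lmo2Tg library 1. Lmo2Tg;p21-/- against p21-/- fell to 0 without either Lmo2Tg;p21-/- library or p21-/- library 2. The interaction fell to 0 without either Lmo2Tg;p21-/- library, Lmo2Tg library 1, p21-/- library 2 or any 1 WT library.

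The genes called in the GFP sort (261) became 741 with DESeq2, 731 at an adjusted p under 0.05 and 403 with no fold threshold, and 0 to 1035 with a library left out, the highest without GFPhi library 3 and 0 without GFPlo library 2 or 3 (2428 and 2869 genes at an unadjusted p under 0.05). For Lmo2Tg;p21-/- against Lmo2Tg (222) they became 97 at an adjusted p under 0.01 and 822 with no fold threshold, and 48 to 235 with a library left out, the lowest without Lmo2Tg;p21-/- library 1 and 115 without library 2. With no fold threshold they were 4329 for Lmo2Tg against WT (1420) and 3639 for Lmo2Tg;p21-/- against p21-/- (1230). For the interaction (95) they were 161 with DESeq2, 224 with no filter, 163 with no fold threshold and 0 at an adjusted p under 0.01, and 0 to 259 with a library left out.

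Signs changed mostly in p21-/- against WT, where no member was called without a replicate block. With limma-voom, log2 fold changes were 0.77 for Fos, 1.63 for Fosb and 0.26 for Jun. With libraries left out, they ranged from -1.26 to 0.70 for Fos, -1.49 to 1.02 for Fosb, -0.80 to 2.36 for Fosl2, -0.81 to 0.62 for Jun, -1.18 to 0.83 for Junb, -0.70 to 0.052 for Jund, -1.82 to 0.94 for Atf3 and -0.20 to 0.088 for Batf. In the GFP sort the ranges were -0.10 to 1.17 for Jun and -0.046 to 0.23 for Jund, and in Lmo2Tg against WT -0.10 to 1.81 for Jun. In Lmo2Tg;p21-/- against p21-/- they were -0.20 to 0.82 for Fos, -0.056 to 0.70 for Fosl1, -0.77 to 0.10 for Jun, -1.69 to 0.20 for Junb and -0.075 to 0.68 for Jund. In the interaction they were -2.40 to 0.15 for Fos and -0.67 to 0.085 for Fosl1.

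Replicate numbers were tried as a block. Per the study, the GFP-sorted cells came from independent cohorts, but the sources used here do not say that a number marks a cohort, and the genotype samples share only a number. The correlations of deviations of same-numbered libraries were 0.070, -0.079 and 0.099 in the GFP sort, and -0.237 and 0.303 for WT and p21-/-. With the replicate block, 0 genes were called in the GFP sort (3216 at an unadjusted p under 0.05). In the genotypes, the block fit left out both Lmo2Tg libraries, which had no number, and WT library 3 was alone in its block. WT library 3 therefore added nothing to the differences or to the spread. In p21-/- against WT 1 member was called (Fos, -1.16, edgeR adjusted p = 0.040), with Junb at -0.63 and Batf at 0.0031. In Lmo2Tg;p21-/- against p21-/- 2 were called, Fosl2 and Fosb (-1.39, edgeR adjusted p = 0.0012). Groups of 2 or 3 libraries and the few counts of Atf3 and Fosl1 set the depth limit of all these values, and where an arm had 1 library left it was taken to vary like the other groups.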
